A study of Mus musculus with 8 samples.

Results

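The genes described here are 10 genes of the p53 pathway and of the response to DNA damage: *Trp53* itself, *Cdkn1a*, *Mdm2*, *Ccng1*, *Phlda3*, *Sesn1*, *Zmat3*, *Trp53inp1*, *Gadd45a* and *Gadd45b*. They were chosen by name, and all 10 of 10 were among the 11911 genes of the count table and among the 11317 genes tested. Naïve CD4+ T cells from the spleens of C57BL/6J-background mice were cultured for 36 hours with anti-CD3, anti-CD28, TGF-β, anti-IL-4 and anti-IFN-γ, which turns part of the cells into induced regulatory T cells (iTregs), and their total RNA was sequenced. The control group (WT) is 4 libraries from Foxp3YFP-Cre mice and the knockout group (KO) 4 libraries from Tdrd3fl/fl/Foxp3YFP-Cre mice, so both groups carry a Cre recombinase with a yellow fluorescent protein at the *Foxp3* locus. The ages of the mice used for RNA are not given in the sources used here. Since Cre is made only once *Foxp3* is switched on, cells of a KO culture that have not reached that point keep *Tdrd3*, and no step that selects YFP+ cells before RNA extraction is described. The study's methods describe replicates from independent mice but fewer per group than the 4 libraries labelled, and the labels do not say which libraries are separate mice, so p-values measure the spread between these libraries only. The question put to these genes was whether iTregs without TDRD3 carry more of the RNAs that DNA damage induces.

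The protein p53, encoded by *Trp53*, is held at a low level by the ubiquitin ligase MDM2. When DNA is broken, the kinases ATM and ATR and the checkpoint kinases stabilize p53, which binds DNA as a tetramer and switches on genes that stop the cell cycle, support repair or lead to cell death, *Mdm2* among them. Because much of the control of p53 acts on the protein, the RNAs of its target genes are a common readout of its activity. TDRD3 is a reader of methylated arginine that works with the topoisomerase TOP3B, which limits R-loops, stretches of RNA paired with DNA that can lead to breaks. In T cells, *Cdkn1a* and *Gadd45b* also respond to activation and to TGF-β, so neither is specific to damage.

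The DNA that p53 reads is a pair of 10-base consensus half-sites. The genome (GRCm39, the build of the authors' alignment) was searched for the full p53 consensus element with no gap between the half-sites, both 4-base cores intact and at most 1 mismatch elsewhere, within 3 kb on either side of each gene's start in the deposited table. The element reads the same on both strands, so one search covers both. It was found near 3 of the 10 genes and in 0.798% of the 11908 windows searched. The members were named as genes of the p53 pathway, so the share near them is no test. The part of the elements in the RNA levels described further on was not tested. Each element is printed in the direction of its gene, with the cores in capitals.
Cdkn1a: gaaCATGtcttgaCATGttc
Zmat3: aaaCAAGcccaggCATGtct
Ccng1: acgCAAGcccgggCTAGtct
The *Cdkn1a* element lies at chr17:29309902-29309921, centred 39 bases upstream of the start in the table and outside every transcript that GENCODE vM39 gives for the gene, and it has 1 mismatch. The *Zmat3* element, with 0 mismatches, lies at chr3:32418480-32418499, 1673 bases downstream of the start, in an intron of 10 of the 11 annotated transcripts and in an exon of 1. The *Ccng1* element, with 1 mismatch, lies at chr11:40645763-40645782, 365 bases downstream of the start, in an intron of 21 of 22 transcripts. A match describes the sequence only. For the other 7 genes, no such letters were in this window.

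The libraries held 13258239 to 16001676 estimated counts each, and values below are normalized CPM, counts scaled to a common library size with edgeR's TMM factors. In the knockout check, *Tdrd3* had 18.8, 15.1, 9.95 and 17.7 CPM in WT replicates 1 to 4 and 13.7, 10.7, 12.9 and 11.1 in KO replicates 1 to 4, so the library labelled WT replicate 3 lay below every KO library. The log2 fold change was −0.35 (standard error, SE, 0.155), with an edgeR adjusted p of 0.496 and an unadjusted P of 0.0370. Without the library labelled WT replicate 3 it was −0.51 (P 4.84e-04, adjusted p 0.115), and without WT replicate 1 it was −0.24 (P 0.166). These counts cover the whole gene and cannot isolate a deleted part. The paper reports the deletion by immunoblot and qPCR in splenic YFP+ cells, and lower *Tdrd3* by qPCR in iTregs. The library labelled WT replicate 3 also had the highest sum of the CD8 T cell markers *Cd8a* and *Cd8b1*, 21.8 CPM against 6.68 to 9.93 in the other 7. Without that library, 0 members had an edgeR adjusted p below 0.05 and 1 an unadjusted P below 0.05, the same counts as with it. The 7 T cell markers summed to between 1960 and 2070 CPM in every library. Only 3 of 5 B cell markers, 1 of 5 myeloid markers (*Lyz2*), 1 of 3 natural killer cell markers (*Eomes*) and 0 of 3 erythroid markers were listed. Those of B, myeloid and natural killer cells each summed to 3.71 CPM at most. The 5 regulatory T cell markers, *Foxp3* included, summed to 3210 to 3350 CPM in WT and 3030 to 3140 in KO without overlap, and their part in the results on the members was not tested. Most of that sum is *Il2ra*, with means of 2268 CPM in WT and 2076 in KO, while *Ctla4* had the higher mean in KO, 589 against 564 CPM. *Foxp3* had 117, 122, 107 and 93.8 CPM in WT replicates 1 to 4 and 77.2, 105, 93.2 and 78.1 in KO replicates 1 to 4, lowest in KO replicates 1 and 4. Its mean was 110 ± 12.5 CPM (SD, n = 4) in WT and 88.4 ± 13.3 (SD, n = 4) in KO, with an edgeR adjusted p of 0.152. Exons of *Foxp3* overlap those of other genes, of *Flicr* on the same strand, and its counts were not whole in 7 libraries. In such unsorted cultures, fewer cells of a type and less RNA per cell cannot be told apart.

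The RNA levels of these genes were close between the genotypes, and none of the 10 reached an adjusted p below 0.05 in edgeR. By the quasi-likelihood test of edgeR, with p-values adjusted by Benjamini-Hochberg across the table, 0 of the 10 passed, where 0.265% of all tested genes did. At an unadjusted P below 0.05, 1 of the 10 passed, *Trp53inp1*, beside 9.30% of all tested genes, so the count is close to the background. With a change of at least 1.2-fold required as well, 0 of the 10 passed, beside 3.47% of all tested genes. DESeq2 and voom with quality weights each gave 1 member with an adjusted p below 0.05, again *Trp53inp1*. The log2 fold change was below 0 in 8 genes and above 0 in 2, where 49.4% of all tested genes were below 0, and 6 of the 10 members changed sign when 1 library was left out. The change had a median of −0.023 over the members and 0.0013 over all tested genes. The values ran from −0.20 to 0.16, and the median size of the change was 0.049 for the members and 0.063 for all tested genes. The 95% confidence interval lay within a 1.2-fold change in either direction for 7 of the 10 genes, against 59.1% of all tested genes. It lay within 1.3-fold for all 10, and the share of all tested genes was not counted at that limit.

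**Figure D1:**
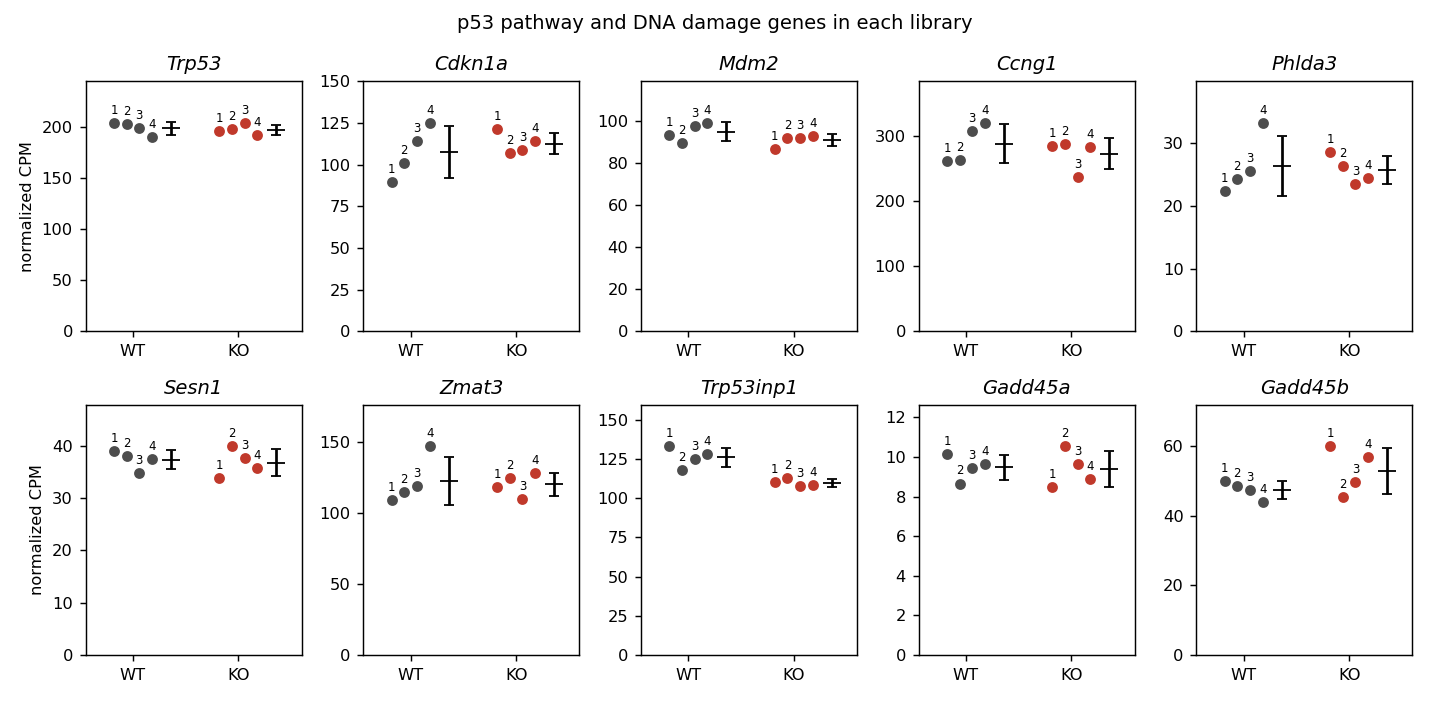
Normalized CPM (vertical axis, from 0, a scale of its own in each panel) of the 10 genes in each library, WT in grey and KO in red with the replicate number above each point, and the mean and SD of 4 libraries in black. The groups are separate for *Trp53inp1* and overlap for the other 9 genes.

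*Trp53* had 204, 203, 199 and 190 CPM in WT replicates 1 to 4 and 197, 198, 204 and 192 in KO replicates 1 to 4. The 8 libraries were close to each other and the genotypes covered nearly the same range. The mean was 199 ± 6.47 CPM (SD, n = 4) in WT and 198 ± 4.90 (SD, n = 4) in KO, a log2 fold change of −0.011 (SE 0.041) with an edgeR adjusted p of 0.960. The interval of the fold, 0.935 to 1.05, is the narrowest among the 10 genes. Exons of *Trp53* overlap those of *Wrap53* on the opposite strand, and the sources used here do not state whether counting used strand.

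*Mdm2*, the ligase that marks p53 for degradation and is itself a p53 target, had 93.5, 89.3, 97.7 and 99.1 CPM in WT replicates 1 to 4 and 86.6, 91.7, 91.9 and 92.8 in KO replicates 1 to 4. The KO libraries lay below the middle of the control range and the groups overlapped (two-sided exact permutation test, p = 0.200). The log2 fold change was −0.064 (SE 0.050), and the edgeR adjusted p was 0.797. *Ccng1* encodes cyclin G1, which brings protein phosphatase 2A to MDM2. It had 262, 263, 307 and 320 CPM in WT replicates 1 to 4 and 285, 287, 237 and 283 in KO replicates 1 to 4. WT replicates 3 and 4 were highest, and KO replicate 3 alone lay below the controls. Its log2 fold change was −0.077 (SE 0.067), and the edgeR adjusted p was 0.827. It was −0.015 without KO replicate 3 and −0.023 without WT replicate 4, and −0.12 without WT replicate 1 or 2. It was −0.044 without WT replicate 3.

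*Trp53inp1* encodes a nuclear stress protein that takes part in p53 phosphorylation and in autophagy. It had 133, 118, 125 and 128 CPM in WT replicates 1 to 4 and 110, 113, 108 and 108 in KO replicates 1 to 4. Every KO library lay below every WT library. Groups without overlap were seen in 1 of the 10 members and in 4.88% of all tested genes, or 2.63% with KO lower. The exact two-sided permutation p was 0.0286, which is the smallest possible with 4 against 4 libraries. The mean was 126 ± 6.33 CPM (SD, n = 4) in WT and 110 ± 2.44 (SD, n = 4) in KO, a log2 fold change of −0.20 (SE 0.047), or 12.9% less RNA (fold 0.871, 95% interval 0.814 to 0.933). By edgeR, the unadjusted P was 4.46e-04 and the adjusted p 0.0827, and the gene ranked 61 of 11317 by P. Over 15 alternatives the log2 fold change stayed between −0.23 and −0.17, and the adjusted p ranged from 0.0207 to 0.324 and was below 0.05 in 3 of them: DESeq2 (0.0207), voom (0.0416) and edgeR without KO replicate 2 (0.0446). Without the library labelled WT replicate 3 it was 0.123. The gene spans 11156431 to 11174379 on chromosome 4 (GRCm39), and no other annotated gene shares its exons. Exons of *Mdm2*, *Ccng1* and *Sesn1* overlap those of *Gm56970*, *Nudcd2* and *Cep57l1* in turn, each on the opposite strand.

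**Figure D2:**
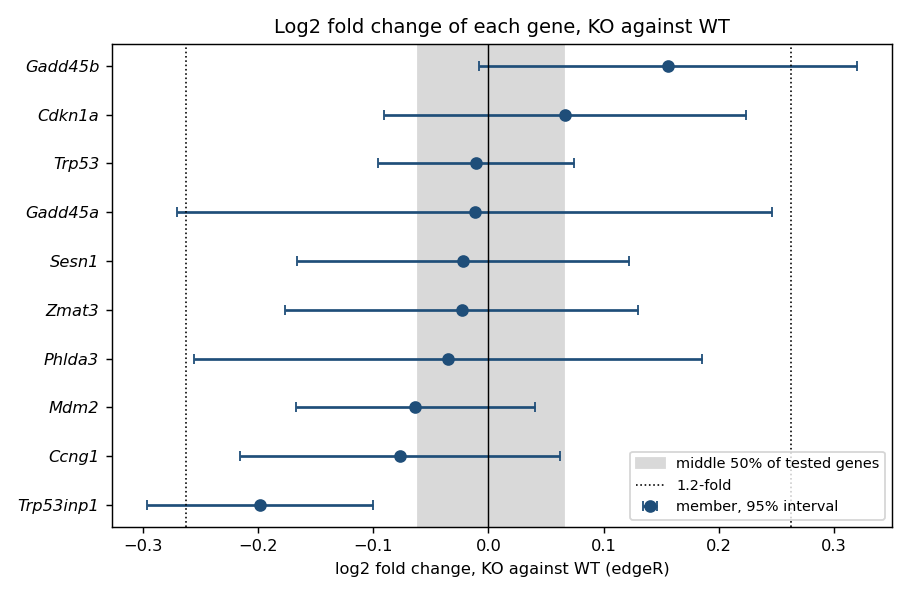
Log2 fold change of each gene, KO against WT, from edgeR (points) with its 95% confidence interval (bars), the middle 50% of tested genes (grey band) and a 1.2-fold change (dotted lines). The interval leaves out 0 for *Trp53inp1* alone, and that of *Gadd45b* starts at −0.008.

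*Cdkn1a* encodes p21, the inhibitor of cyclin-dependent kinases that carries out much of the cell cycle arrest by p53. It had 89.8, 101, 114 and 125 CPM in WT replicates 1 to 4 and 121, 107, 108 and 114 in KO replicates 1 to 4. All 4 KO libraries lay inside the range of the controls, whose spread was more than that of the KO libraries (SD 15.3 and 6.46 CPM, n = 4 each). The means of 108 and 113 CPM gave a log2 fold change of 0.067 (SE 0.075), an edgeR adjusted p of 0.870 and a fold of 1.05 (95% interval 0.939 to 1.17). The value depended on single control libraries: it was 0.15 without WT replicate 4, with an unadjusted P of 0.0443, and −0.012 without WT replicate 1, with a P of 0.860. Exons of *Cdkn1a* overlap those of *Dino* and *Gm64878* on the opposite strand, and its estimated counts were not whole in 3 of the 8 libraries.

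*Phlda3* encodes a small lipid-binding protein that competes with AKT at the membrane. It had 22.3, 24.4, 25.5 and 33.3 CPM in WT replicates 1 to 4 and 28.5, 26.3, 23.5 and 24.5 in KO replicates 1 to 4. WT replicate 4 was highest and WT replicate 1 lowest, with the KO libraries between them. *Zmat3*, an RNA-binding zinc finger protein, had 109, 115, 119 and 147 CPM in WT replicates 1 to 4 and 119, 125, 110 and 128 in KO replicates 1 to 4, again with the controls at both ends. The log2 fold change was −0.035 (SE 0.105) for *Phlda3* and −0.023 (SE 0.073) for *Zmat3*, and the edgeR adjusted p was 0.953 and 0.955. Without WT replicate 4 the sign turned in both, to 0.096 and 0.075, with unadjusted P of 0.302 and 0.196.

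*Sesn1* encodes sestrin 1, which restrains the growth kinase complex mTORC1. It had 39.0, 38.1, 34.9 and 37.6 CPM in WT replicates 1 to 4 and 33.8, 39.9, 37.7 and 35.9 in KO replicates 1 to 4, so that KO libraries were both highest and lowest. Its log2 fold change was −0.022 (SE 0.069), and the edgeR adjusted p was 0.955.

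*Gadd45a* and *Gadd45b* encode small stress proteins that bind the kinase MTK1, upstream of p38 and JNK, and the replication clamp PCNA. *Gadd45a* was the lowest of the 10 genes, with 10.1, 8.66, 9.46 and 9.63 CPM in WT replicates 1 to 4 and 8.49, 10.5, 9.62 and 8.90 in KO replicates 1 to 4. Its libraries held 117 to 168 counts, the groups overlapped fully, and its 95% interval, a log2 fold change of −0.27 to 0.25, was the widest. Its exons overlap *E230016M11Rik* on the opposite strand and its counts were not whole in 6 libraries. *Gadd45b* had 49.98, 48.6, 47.4 and 43.9 CPM in WT replicates 1 to 4 and 59.97, 45.3, 49.6 and 56.9 in KO replicates 1 to 4. KO replicates 1 and 4 lay above all controls, and KO replicates 2 and 3 lay among them. *Foxp3* was lowest in KO replicates 1 and 4, and the part of this was not tested. The means were 47.5 ± 2.60 and 52.9 ± 6.69 CPM (SD, n = 4 each), a log2 fold change of 0.16 (SE 0.078). By edgeR its P was 0.0609 unadjusted and its adjusted p 0.572. The log2 fold change was 0.23 without KO replicate 2, with an unadjusted P of 0.00668, 0.19 without KO replicate 3, with a P of 0.0444, and 0.091 without KO replicate 1, with a P of 0.263.

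Divided by exon length, *Ccng1* was the most abundant member in WT, at 65.4 CPM per kb, above 96.1% of tested genes, followed by *Trp53* at 27.0 CPM per kb. *Cdkn1a* and *Trp53inp1* followed at 17.8 and 17.2 CPM per kb, with *Gadd45b* (17.8 in KO) just under them in WT. Each of these 3 overlapped its neighbour in this order over the 8 libraries, and so did *Mdm2*, *Zmat3* and *Phlda3* at 12.3, 10.7 and 10.2. *Sesn1* at 7.42 and *Gadd45a* at 5.34 CPM per kb were lowest, each separate from its neighbours, and even *Gadd45a* was above 47.6% of tested genes.

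Several members varied together between libraries of the same genotype. *Cdkn1a*, *Phlda3*, *Zmat3*, *Ccng1* and *Mdm2* were all highest in WT replicate 4, 5 of the 10 genes, while 14.0% of all tested genes were highest in that library. Of 36 tested genes listed as p53 targets outside the members, 10 (27.8%) were highest there. Over the 8 libraries, Pearson's r of log2 CPM was 0.85 between *Phlda3* and *Zmat3*, 0.81 between *Cdkn1a* and *Phlda3* and 0.80 between *Ccng1* and *Zmat3*, the 3 of 45 pairs above 0.8. The 3 genes with an element printed above, *Cdkn1a*, *Zmat3* and *Ccng1*, are among these 4, and *Phlda3* had none in its window. The other pairs of those 3 had r of 0.71 (*Cdkn1a* and *Zmat3*) and 0.61 (*Cdkn1a* and *Ccng1*). The part of the elements was not tested. *Trp53* itself ran the other way, with r of −0.93 with *Zmat3*, −0.79 with *Cdkn1a*, −0.77 with *Ccng1* and −0.77 with *Phlda3*. Its range was narrow, 190 CPM in WT replicate 4 to 204 in WT replicate 1.

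These correlations are descriptions over 8 libraries, which share a table, its scaling and 2 genotypes, and the pairs were singled out after their values were seen. Measured on deviations from the genotype means, r was 0.85 for *Phlda3* and *Zmat3*, 0.86 for *Cdkn1a* and *Phlda3*, 0.82 for *Ccng1* and *Zmat3* and −0.95 for *Trp53* and *Zmat3*. Without WT replicates 1 and 4, at the ends of the range, r over the other 6 libraries was 0.32, 0.62, 0.70 and −0.90 for the same pairs. It was 0.29 for *Cdkn1a* and *Zmat3* and 0.46 for *Cdkn1a* and *Ccng1*. The relations of *Phlda3* and of *Cdkn1a* with *Zmat3* thus rested largely on WT replicates 1 and 4. *Mdm2* had lower r with these genes, 0.53 with *Ccng1*, 0.51 with *Zmat3*, 0.29 with *Phlda3* and 0.19 with *Cdkn1a*, and without WT replicates 1 and 4 these were 0.35, 0.16, −0.42 and −0.034. For the remaining members, r with *Cdkn1a* was −0.32 for *Trp53inp1*, 0.12 for *Gadd45b*, −0.37 for *Gadd45a* and −0.61 for *Sesn1*. Over all 45 pairs the median r was 0.078.

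**Figure D3:**
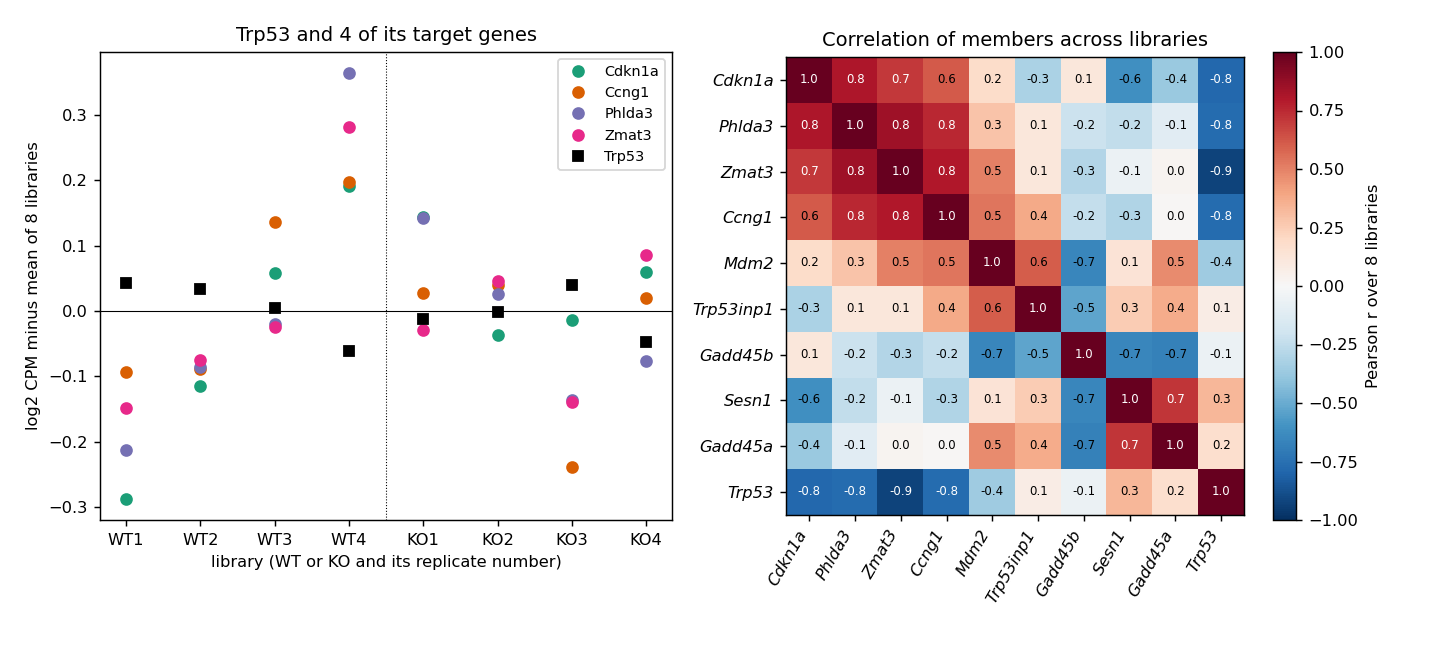
Left, log2 CPM minus the mean of the 8 libraries for *Trp53* (squares) and *Cdkn1a*, *Ccng1*, *Phlda3* and *Zmat3* (circles), by library; right, Pearson's r between all 10 genes over the 8 libraries (red positive, blue negative). The 4 target genes are highest in WT replicate 4, where *Trp53* is lowest, and r between *Trp53* and *Zmat3* is −0.93.

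Other genes of the pathway were counted from lists of regulators, targets, signalling and repair genes and of paralogues of the members. Of 96 such genes outside the members, 88 were tested, and 0 had an edgeR adjusted p below 0.05 after Benjamini-Hochberg adjustment, where 0.265% of all tested genes did. At an unadjusted P below 0.05, 5 were lower and 4 were higher in KO, beside 4.91% and 4.38% of all tested genes. Groups did not overlap in 4 of the 88, beside 4.88% of all tested genes. The median log2 fold change of the 88 was 0.0051.

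The genes listed as p53 targets outside the members include the paralogues *Cdkn1b*, *Ccng2* and *Sesn2*. Of 36 tested, 4 had an unadjusted P below 0.05 with less RNA in KO, beside 4.91% of all tested genes. With more RNA in KO there were 2, beside 4.38% of all tested genes. The median log2 fold change of the 36 was −0.0064. *Bax*, which permeabilizes mitochondria in apoptosis, had 118, 127, 136 and 133 CPM in WT replicates 1 to 4 and 120, 116, 117 and 117 in KO replicates 1 to 4, a log2 fold change of −0.13 with an edgeR adjusted p of 0.361. WT replicate 1 was the only control among the KO values. *Perp*, a membrane protein of apoptosis and of cell contacts, had 5.48, 5.89, 5.19 and 7.15 CPM in WT replicates 1 to 4 and 10.4, 6.58, 9.02 and 11.1 in KO replicates 1 to 4. Its log2 fold change of 0.64 (SE 0.171) was the largest of the listed genes, at an edgeR adjusted p of 0.135. KO replicate 2 lay within the controls, and KO replicates 1 and 4 were highest. In those libraries *Foxp3* was lowest, and the part of this was not tested. The DNA damage sensor *Ddb2* (27.0 ± 1.22 and 23.8 ± 1.81 CPM, SD, n = 4 each), the repair protein *Mgmt* (7.42 ± 1.04 and 5.88 ± 0.887) and the checkpoint protein *Sfn* (40.2 ± 2.55 and 34.6 ± 5.26) had lower means in KO, with adjusted p of 0.462, 0.538 and 0.454. The glutaminase *Gls2* had a higher mean, 30.9 ± 3.59 against 25.7 ± 1.48 CPM (SD, n = 4 each), with an adjusted p of 0.267. In each of these 4 genes the genotypes overlapped. Among the 8 tested repair targets, 1 other gene, with an unadjusted P of 0.05 or above, had groups without overlap, as in 4.88% of all tested genes. Without KO replicate 2, *Perp* (0.78, adjusted p 0.0138), *Gls2* (0.34, adjusted p 0.0357) and *Sfn* (−0.32, adjusted p 0.0449) passed the adjusted threshold in edgeR, as did 162 genes of the whole table in place of 30.

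Of 21 tested signalling and checkpoint genes, *Rad9a* and *Rnf168* had an unadjusted P below 0.05, both with more RNA in KO, beside 4.38% of all tested genes, and with log2 fold changes of 0.16 and 0.17. By edgeR, 0 passed the adjusted threshold, where 0.265% of all tested genes did. Of the 21 genes, 14 had a log2 fold change above 0 and 7 below, where 49.4% of all tested genes were below 0. The median of the 21 was 0.029, and 0.016 to 0.040 with 1 library left out. For the p53 targets of the cell cycle it was −0.016, and −0.044 to −0.012 with 1 library left out. *Rad9a*, part of the clamp that activates ATR, had 43.5, 42.4, 42.5 and 46.0 CPM in WT replicates 1 to 4 and 50.6, 47.8, 49.4 and 46.8 in KO replicates 1 to 4. Its groups did not overlap, as in 4.88% of all tested genes (exact permutation p = 0.0286, two-sided), and its edgeR adjusted p was 0.379. *Rnf168*, the ubiquitin ligase that marks chromatin at breaks, had 51.4 ± 2.79 CPM (SD, n = 4) in WT and 57.6 ± 5.36 (SD, n = 4) in KO, an edgeR adjusted p of 0.452. Among 19 genes of homologous recombination and fork repair, 0 had an unadjusted P below 0.05, beside 9.30% of all tested genes. The smallest edgeR P were 0.213 for *Rad52* and 0.246 for *Rad54l*. *Rad54l* ran from 81.7 to 85.4 CPM in WT and from 79.4 to 80.6 in KO, a log2 fold change of −0.056. Its groups did not overlap, as in 4.88% of all tested genes (exact permutation p = 0.0286, two-sided). The median log2 fold change of the 19 genes was 0.0068. Of 12 tested regulators of p53, *Trp53inp1* alone, a member already counted above, had an unadjusted P below 0.05, beside 9.30% of all tested genes.

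**Figure D4:**
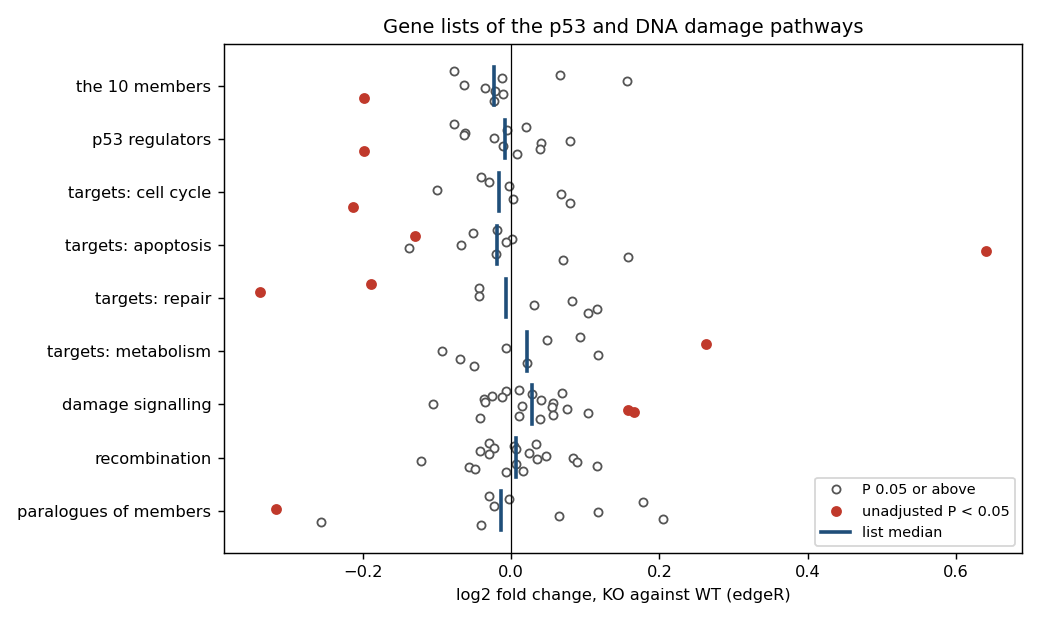
Log2 fold change, KO against WT, from edgeR for the 10 members and each gene list (vertical axis), in red where the unadjusted P was below 0.05 and open elsewhere, with list medians as blue bars. The medians lie between −0.023 and 0.029, and *Perp*, at 0.64, is the point farthest from 0.

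Of 14 paralogues of the members, 10 were tested. *Phlda1*, a relative of *Phlda3*, had 69.8, 72.6, 77.8 and 69.97 CPM in WT replicates 1 to 4 and 51.3, 67.5, 61.4 and 52.6 in KO replicates 1 to 4. Every KO library lay below every control, as in 2.63% of all tested genes, and groups without overlap were seen in 1 of the 10 tested paralogues. KO replicates 1 and 4 lay farthest, the libraries in which *Foxp3* was lowest, and the part of this was not tested. The log2 fold change was −0.32 (SE 0.075). By edgeR its P was 4.86e-04 unadjusted and its adjusted p 0.0834. The adjusted p was 0.0209 with DESeq2, 0.0362 with voom and 0.00488 in edgeR without KO replicate 2. The other 9 had unadjusted P of 0.0856 or more, with overlapping genotypes: *Sesn2* (0.12), *Sesn3* (0.065), *Trp53inp2* (0.21) and *Gadd45g* (0.18) had log2 fold changes above 0, and *Cdkn1b* (−0.0030), *Mdm4* (−0.023), *Ccng2* (−0.029), *Zmat2* (−0.041) and *Zmat1* (−0.26) below 0. *Trp53inp2* had a higher mean in KO, 11.4 ± 1.92 against 9.89 ± 0.211 CPM (SD, n = 4 each), where *Trp53inp1* had a lower one, and the difference between these 2 was not tested. Without KO replicate 1 the value of *Trp53inp2* was 0.098. With 1 library left out, the values ran from 0.018 to 0.11 for *Sesn3*, from 0.046 to 0.46 for *Gadd45g* and from −0.36 to −0.082 for *Zmat1*, with the value nearest 0 without KO replicate 4 for *Sesn3* and *Zmat1* and without WT replicate 1 for *Gadd45g*.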

How the data were processed

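Total RNA depleted of ribosomal RNA was sequenced from 8 iTreg cultures, 4 per genotype. Reads were aligned by the authors with STAR 2.7.8a (build GRCm39), who deposited expected counts, that is estimated counts per gene from the E/M algorithm of Partek Flow, filtered and not normalized. The annotation version and use of strand are not given in the sources used here. Of the values, 43.0% are not whole. Depth was 13258239 to 16001676 counts per library; 3 counts correspond to 0.188 to 0.225 CPM, for counting error only. Libraries were matched to genotype by their titles.

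Estimated counts were rounded, filtered with filterByExpr (minimum count 10), scaled by TMM and tested with edgeR 4.0.16 (glmQLFit, glmQLFTest, genotype alone, two-sided; R 4.3.3). P-values were adjusted by Benjamini-Hochberg across 11317 genes. The study's methods used DESeq2 for this comparison, which was an alternative here. Standard errors follow from the F statistic, and 95% intervals use its degrees of freedom. Exact permutation tests used log2(CPM + 0.5). The fit was tested on simulated data.

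The members and gene lists were chosen with earlier results of these data known. Named genes are the members, *Tdrd3*, *Foxp3*, listed genes with an unadjusted P below 0.05 (otherwise the 2 smallest in a list), tested paralogues, and the 5 genes most and least correlated with *Cdkn1a*. No 2 libraries of a genotype agreed within sampling noise (chi-square per degree of freedom 2.59 to 6.32). Gene spans are those of the deposited table, and exon lengths and overlaps come from GENCODE vM39 on the same build. Alternatives were DESeq2 1.42.0 or its size factors, limma 3.58.1 (voom, quality weights), scaling by library size, no filter or at least 10 counts per library, a replicate block, and each library left out.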

Additional observations from a re-analysis of the deposited data

Results flagged for a closer look

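Single libraries were checked for 32 named genes, leaving out those picked by their correlation with *Cdkn1a*. In 64 combinations of such a gene and a genotype, the gap between the most extreme library and its nearest neighbour was compared with the range of the 4 libraries. Dixon's limit for 4 values was passed by 2 combinations, where chance gives about 5% of them. *Ccng1* in KO replicate 3 stood apart at 237 CPM, against 283 to 287 in the other KO libraries, a gap of 0.923 of the range. *Cdkn1b*, the paralogue of *Cdkn1a*, stood apart in WT replicate 4 at 74.7 CPM, against 87.3 to 88.6 in the other controls, a gap of 0.907 of the range. WT replicate 4 was also the library in which *Cdkn1a* was highest, at 125 CPM.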

How the results depend on the processing

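Over 15 alternatives, 134 of 150 combinations of a member and a setting kept the sign and the side of the adjusted threshold, 13 changed sign and 3, all for *Trp53inp1*, passed the threshold. Genes with an adjusted p below 0.05 over the table numbered 30, and 81 with DESeq2, 95 with voom, 87 with the replicate block and 6 (without KO replicate 1) to 162 (without KO replicate 2) when 1 library was left out; those with an unadjusted P below 0.05 numbered 1052, and 697 to 1230 with 1 library left out. Members with an adjusted p below 0.05 numbered 0, and 1 with DESeq2, 1 with voom and 0 to 1 with 1 library left out; at an unadjusted P they numbered 1, and 1 to 2 with 1 library left out. The second was *Cdkn1a* without WT replicate 4 and *Gadd45b* without KO replicate 2 or 3. The labels do not say whether libraries of the same replicate number belong together. Same-numbered libraries had correlations of −0.046 to 0.069 in their deviations, and 0 of 4 pairs were each other's best match. These values cannot settle whether such libraries share a batch. With the replicate block, *Trp53inp1* had an edgeR adjusted p of 0.0914, and the block changed no member's call. *Phlda1* passed with the block (adjusted p 0.0200). *Foxp3* passed the adjusted threshold with voom (log2 fold change −0.37), with the replicate block (−0.32) and without WT replicate 4 or KO replicate 2, within −0.41 to −0.25 over the omissions.

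With voom the log2 fold changes of *Phlda3* and *Zmat3* turned to 0.034 and 0.025. With 1 library left out, the range crossed 0 for *Trp53* (−0.034 to 0.0022), *Cdkn1a* (−0.012 to 0.15), *Phlda3* (−0.11 to 0.096), *Zmat3* (−0.076 to 0.075), *Sesn1* (−0.066 to 0.015), *Gadd45a* (−0.075 to 0.032), *Ccng2* (−0.085 to 0.014), *Cdkn1b* (−0.060 to 0.031), *Mdm4* (−0.069 to 0.0036), *Zmat2* (−0.085 to 0.019) and for the medians of the repair targets (−0.020 to 0.055), apoptosis targets (−0.056 to 0.027), metabolism targets (−0.0063 to 0.045), p53 regulators (−0.026 to 0.0018), recombination genes (−0.013 to 0.015) and paralogues (−0.041 to 0.019). These genes were not called in any setting. The part of depth in the calls was not tested.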

Other observations

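Among all tested genes, those whose log2 CPM followed *Cdkn1a* most closely over the 8 libraries were *Idh3a*, *Nup50*, *Ppp2r2d*, *Zfp93* and *Nt5dc1*, with Pearson's r of 0.99, 0.98, 0.97, 0.97 and 0.97, and those that ran most against it were *Dtnbp1*, *Chd2*, *Ssh2*, *Clcf1* and *Uri1*, with r of −0.99, −0.97, −0.97, −0.96 and −0.96. *Idh3a*, a subunit of mitochondrial isocitrate dehydrogenase, had 149, 157, 165 and 171 CPM in WT replicates 1 to 4 and 168, 160, 162 and 163 in KO replicates 1 to 4. None of these 10 genes belongs to the p53 lists. Ranked by r with *Cdkn1a* among the tested genes, *Phlda3* stood at 189, *Zmat3* at 520, *Ccng1* at 961 and *Mdm2* at 4056. With 8 libraries and 11317 genes, such r values are a description only.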
